A study of Arabidopsis thaliana with 12 samples.

Results

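Photosystem, antenna and electron transport genes are the nuclear and plastid genes whose products capture light in the thylakoid membrane and pass electrons from water to ferredoxin. They were chosen by gene name alone, as names that start with PSA, PSB, LHCA, LHCB, PET or RBCS. Of the 49 names that matched, 3 start with PSAT, which marks phosphoserine aminotransferase, and were left out. This left 46 genes of the 20017 in the table: 15 of photosystem I, 14 of photosystem II, 5 LHCA and 9 LHCB antenna genes, PETC of the cytochrome b6f complex, PETJ, and the Rubisco small subunit gene RBCS-1A. PSAB is encoded in the plastid and the other 45 in the nucleus.

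The RNA came from whole roots of *Arabidopsis thaliana* seedlings, and the study asked how loss of CRR alters the root response to phosphate (Pi) deficiency. CRR, a plasma membrane protein with cytochrome b561 and DOMON domains, is described in the study as reducing ferric iron. The 4 groups were wild-type Col-0 with Pi (Col-0 +Pi), Col-0 without added Pi (Col-0 -Pi), the *crr* mutant with Pi (*crr* +Pi) and the *crr* mutant without added Pi (*crr* -Pi), each with 3 libraries. All seedlings were 7 days old and grew on agar plates, with 1 mM Pi in the control medium. The mutant is a T-DNA insertion line that stands for 1 allele, roots of many seedlings were pooled for each replicate, and the medium without added Pi still held residual Pi.

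Each value is the authors' mean log2 CPM (read counts scaled to the library total, on a log2 scale) of 1 group, so a difference of 1 log2 unit is 2-fold. The spread between libraries cannot be had from these means, so no difference below has an error or a test, and "lower" and "higher" describe the group means only. Sequencing depth per library was not used here. The transcript of CRR itself stood at 5.99 and 5.64 log2 CPM in Col-0 with and without Pi, and at -0.38 and -0.11 log2 CPM in *crr*. The mutant labels therefore match the level of the targeted gene in both media.

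Light energy drives electrons from water through photosystem II, the cytochrome b6f complex and plastocyanin to photosystem I and ferredoxin. The antenna proteins LHCA and LHCB bind chlorophyll and feed the reaction centres, and Rubisco fixes CO2 with the products. In leaves these genes rank among the most abundant transcripts, whereas most root plastids are not green, although light-grown roots can form some chloroplasts.

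The region just upstream of these genes was read for letters known from light-responsive plant promoters. The window was the 250 bases before the annotated gene start in TAIR10.1, and it was read for 44 of the 46 genes. The G-box (CACGTG, the same on both strands) occurred in 10 of the 44 windows (22.7%) and in 7.19% of the windows of 19867 genes of the table. The I-box core (GATAAG, searched on both strands, and able to share 1 end base with a G-box) occurred in 11 of them (25%), and in 12% of all windows. P1BS (GNATATNC, both strands), the letters bound by the Pi starvation regulator PHR1, occurred in 1 window (2.27%), that of PSBR, and in 5.54% of all windows. These matches are descriptions of the sequence and do not show binding.

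The windows of 5 genes are printed here, 5′ to 3′ on the strand of the gene, because the results below turn on these genes or because they hold the G-box or I-box letters. The capitals mark G-box and I-box matches, a reverse match of the I-box reading CTTATC. PSBQ1 (chr4:11334102-11334351 on the plus strand) and PSBQ2 (chr4:2673244-2673493 on the minus strand) each hold 2 G-boxes, PSBQ2 also an I-box, and PSAE2 (chr2:8736484-8736733 on the plus strand) holds 1. LHCB6 (chr1:5447881-5448130 on the minus strand) holds a G-box and an I-box, and PETC (chr4:1439896-1440145 on the plus strand) holds an I-box.
PSBQ1: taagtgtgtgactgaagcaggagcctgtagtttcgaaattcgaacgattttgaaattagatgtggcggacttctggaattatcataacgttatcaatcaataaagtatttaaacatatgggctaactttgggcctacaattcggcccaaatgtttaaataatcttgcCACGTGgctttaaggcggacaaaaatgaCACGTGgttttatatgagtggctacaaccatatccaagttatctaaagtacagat
PSBQ2: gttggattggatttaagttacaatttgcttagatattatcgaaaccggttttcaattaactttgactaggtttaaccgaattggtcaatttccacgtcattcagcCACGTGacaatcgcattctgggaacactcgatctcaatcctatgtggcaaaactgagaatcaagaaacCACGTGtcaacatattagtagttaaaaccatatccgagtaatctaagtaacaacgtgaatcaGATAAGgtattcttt
PSAE2: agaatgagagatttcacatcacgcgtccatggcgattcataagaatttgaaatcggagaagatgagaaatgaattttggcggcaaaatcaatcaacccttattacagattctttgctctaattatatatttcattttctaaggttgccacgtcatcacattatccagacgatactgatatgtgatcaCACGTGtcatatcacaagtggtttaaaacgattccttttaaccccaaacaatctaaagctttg
LHCB6: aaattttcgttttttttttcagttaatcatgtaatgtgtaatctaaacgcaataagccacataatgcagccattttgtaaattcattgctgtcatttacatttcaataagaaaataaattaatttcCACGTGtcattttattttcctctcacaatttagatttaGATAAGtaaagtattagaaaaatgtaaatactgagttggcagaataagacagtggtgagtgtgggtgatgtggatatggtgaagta
PETC: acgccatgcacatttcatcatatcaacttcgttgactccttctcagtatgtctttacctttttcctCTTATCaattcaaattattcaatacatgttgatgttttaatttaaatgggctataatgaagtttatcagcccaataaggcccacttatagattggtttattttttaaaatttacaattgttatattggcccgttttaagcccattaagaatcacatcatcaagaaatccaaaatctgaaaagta

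The CCAAT box (CCAAT, both strands) occurred in 24 of the members' 44 windows (54.5%) and in 47.6% of all windows. By subgroup it stood in 8 of 9 LHCB windows, 4 of 5 LHCA windows, 7 of 13 photosystem I windows, 4 of 14 photosystem II windows and that of PETC, and in neither that of PETJ nor that of RBCS-1A. For the G-box the counts were 3, 1, 2 and 4 in the same order of the 4 larger subgroups, and for the I-box core 3, 1, 4 and 2. The TATA box letters (TATAAA, both strands) occurred in 47.7% of the members' windows and 46.4% of all windows.

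The members were weakly expressed in these roots. Their median was 2.31 log2 CPM in Col-0 +Pi, against 4.18 log2 CPM over all genes. CPM holds no length correction, so transcript length also enters this comparison. Of the 46 members, 40 reached 1 log2 CPM in at least 1 group, as did 18383 of all 20017 genes, so this count does not set the members apart. None of the members stood at the lowest value of the table. Together they held 416 CPM in Col-0 +Pi, 238 in Col-0 -Pi, 439 in *crr* +Pi and 198 in *crr* -Pi, or 0.0418%, 0.0238%, 0.0439% and 0.0199% of all CPM. Photosystem II genes held the largest of these shares, with 214 CPM in Col-0 +Pi, against 103 CPM for the 14 antenna genes and 74.7 CPM for the photosystem I genes. All sums and shares of CPM, here and below, add group means converted back from log2, so they are not sums of reads.

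Levels of different genes were compared per kilobase of transcript, as the log2 mean over the 4 groups. PSBR, a small lumenal-side subunit of photosystem II, stood highest at 5.32, followed by PSBO1 at 4.26, PSBX at 3.84, LHCA4 at 3.77 and PSBP1 at 3.75. PSAF was the highest photosystem I member at 3.51 and LHCB4.1 the highest LHCB member at 3.21. The lowest were LHCB2.1 at -0.81, LHCB4.3 at -0.76 and PSAH2 at -0.54. How far neighbours in this order differ cannot be judged without the spread between libraries.

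**Figure D1:**
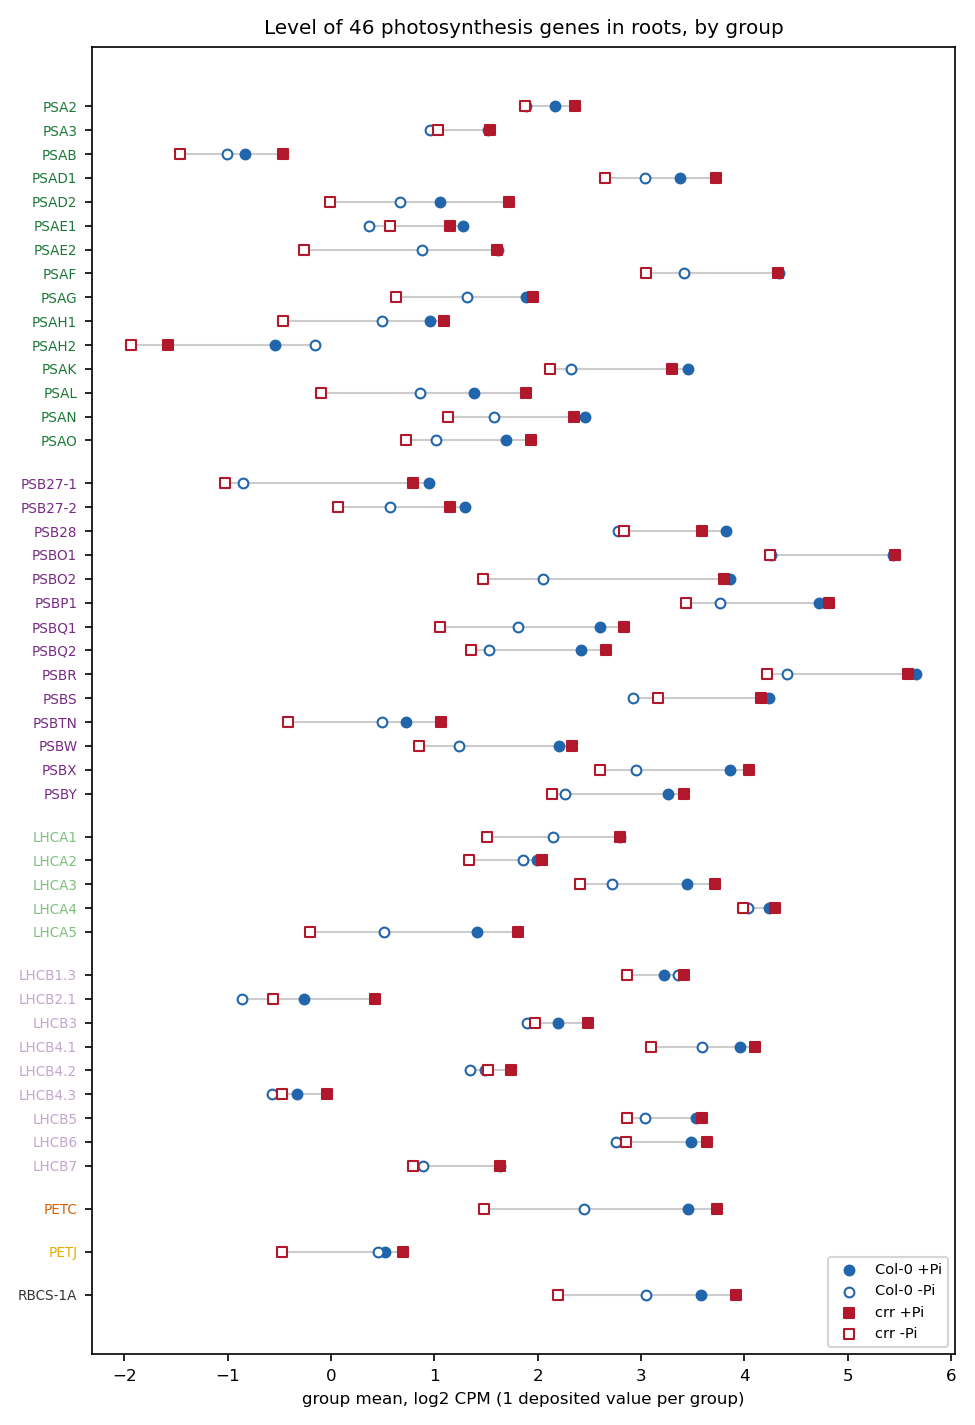
Group means of the 46 genes in log2 CPM on the x axis, 1 gene a row and ordered by subgroup, with circles for Col-0, squares for crr, filled symbols for +Pi and open symbols for -Pi. Within each genotype the open symbol lies to the left of the filled one, PSAH2 and LHCB1.3 in Col-0 being the exceptions. In crr -Pi 12 of the 46 genes lie under 0 log2 CPM, where 1108 of all 20017 genes do. In Col-0 +Pi, Col-0 -Pi and crr +Pi the members under 0 number 4, 5 and 3.

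In Col-0, 44 of the 46 genes (95.7%) were lower without Pi than with Pi, against 45.7% of all genes. The median difference was -0.70 log2 units, against 0.02 over all genes. The difference reached 2-fold in 9 of the 46 (19.6%), all lower. Over the whole set 2.79% of genes were lower by 2-fold or more and 4.19% higher. In *crr* all 46 were lower without Pi, against 48.6% of all genes, and the median was -1.21 against 0.01 over all genes. By 2-fold or more 29 (63%) were lower, where all genes had 3.62% lower and 5.06% higher. No member was higher by 2-fold in either genotype. On the log2(CPM + 1) scale, which shrinks differences of low genes, the counts were 4 in Col-0 and 19 in *crr*. The share of all genes on that scale was not computed.

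The 2-fold limit was passed in both genotypes by 7 genes, PSBO2, PSB27-1, PSBR, PSBO1, PSBY, PSAK and PETC. It was passed in Col-0 alone by PSB28 and PSBS and in *crr* alone by 22 genes, while 15 passed it in neither. This split was not made over all genes, so how unusual the overlap is cannot be read from it. In Col-0 PSBY, with 3.27 log2 CPM with Pi and 2.27 without, lay just inside the limit and PSBW at -0.97 just outside, and in *crr* LHCB4.1 at -1.01 lay inside and PSBS at -0.99 outside. Across the 46 genes the values in both genotypes had a Pearson r of 0.55, a description over genes that share the same libraries and are not independent.

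**Figure D2:**
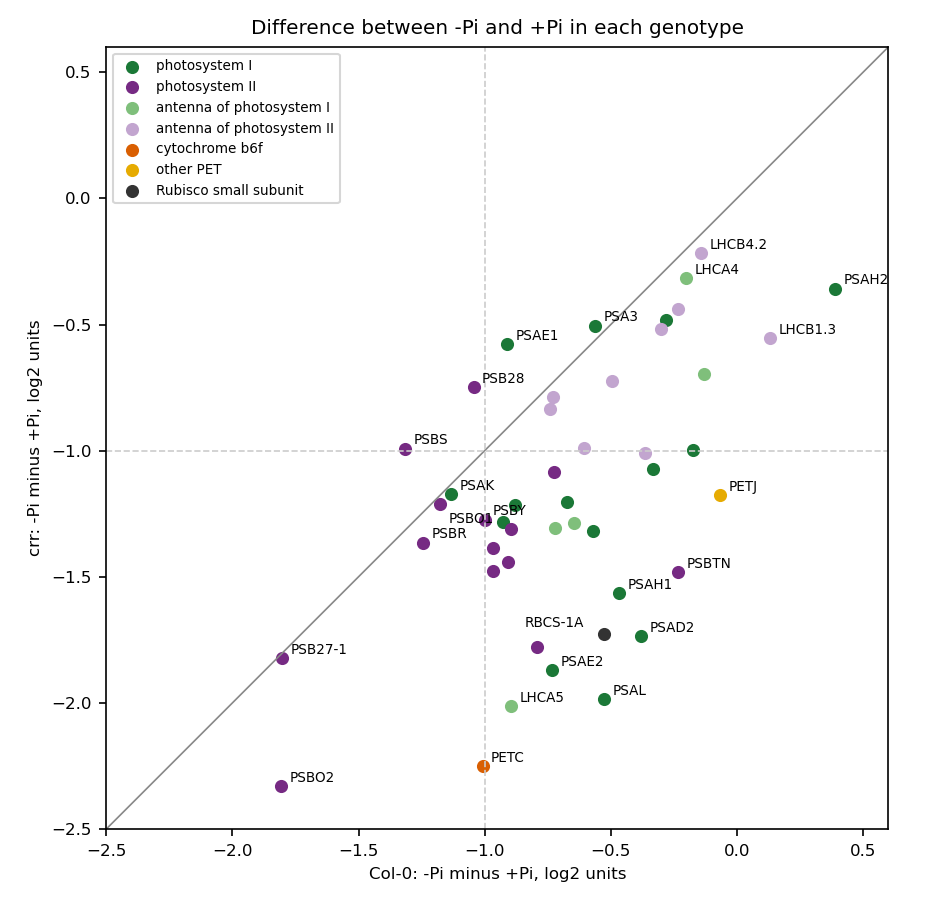
Difference between -Pi and +Pi in Col-0 (x axis) and in crr (y axis), in log2 units, 1 point a gene and coloured by subgroup, with the diagonal of equal differences and dashed lines at 2-fold lower. Below the diagonal lie 42 of the 46 genes, and PSAE1, PSBS, PSB28 and PSA3 lie above it.

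Of the 4 subgroups with several genes, photosystem II had the lowest median in both genotypes. All 14 were lower without Pi, with a median of -0.98, and 7 of them by 2-fold or more. In *crr* the median was -1.37 and 12 of 14 reached 2-fold. Their summed level was 214 CPM with Pi and 97.4 CPM without in Col-0, and 216 and 86.5 CPM in *crr*.

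The oxygen-evolving proteins, which sit on the lumenal face of photosystem II around the manganese cluster that splits water, showed this as a group. All 6 genes for PSBO, PSBP, PSBQ and PSBR were lower without Pi, with medians of -1.07 in Col-0 and -1.37 in *crr*, and all 6 reached 2-fold in *crr* but 3 in Col-0. PSBO1 (AT5G66570, chromosome 5, 26568572 to 26570461), the main manganese-stabilizing protein, had 5.44 log2 CPM in Col-0 +Pi, 4.26 in Col-0 -Pi, 5.46 in *crr* +Pi and 4.24 in *crr* -Pi. Positions here and below are those of the table, on TAIR10. The genotypes had nearly the same PSBO1 level in each medium, 2.26-fold and 2.32-fold lower without Pi.

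PSBO2 (AT3G50820, chromosome 3, 18890874 to 18892508), its paralog, had 3.86, 2.05, 3.80 and 1.47 log2 CPM in the same order of groups. It was 3.50-fold lower without Pi in Col-0 and 5.02-fold lower in *crr*, the largest difference of any member in *crr*. In Col-0 PSB27-1, at 3.49-fold, was level with PSBO2. The share of PSBO2 in the summed CPM of PSBO1 and PSBO2 was 25.1% and 17.8% in Col-0 with and without Pi, and 24.1% and 12.8% in *crr*. No 50-base stretch is shared between the transcripts of PSBO1 or PSBO2 and those of any other gene.

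PSBR (AT1G79040, chromosome 1, 29735952 to 29737009) had 5.66, 4.42, 5.58 and 4.22 log2 CPM, again close between the genotypes in each medium. PSBP1, which helps retain calcium and chloride at the oxygen-evolving site, had 4.73, 3.76, 4.82 and 3.44 log2 CPM. PSBQ1 and PSBQ2 encode the third extrinsic protein, and their upstream windows with 2 G-boxes each are printed above. PSBQ1 had 2.61, 1.81, 2.83 and 1.05 log2 CPM, and PSBQ2 had 2.42, 1.53, 2.66 and 1.35. In *crr* the Pi difference was -1.78 for PSBQ1 and -1.31 for PSBQ2, so that PSBQ2 made up 47.1% of the pair's CPM with Pi and 55.2% without.

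Assembly and photoprotection genes of photosystem II were less uniform. PSB27-1, a lumenal assembly and repair factor, had 0.95, -0.85, 0.80 and -1.02 log2 CPM, 3.49-fold lower without Pi in Col-0 and 3.53-fold lower in *crr* at a low level. PSB28, another assembly factor, had 3.82, 2.78, 3.59 and 2.84 log2 CPM, and PSBS, the protein that triggers heat dissipation of excess light, had 4.24, 2.92, 4.16 and 3.17. Both of these were less reduced in *crr* (-0.75 and -0.99) than in Col-0 (-1.04 and -1.31).

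Among the small membrane or lumenal subunits, PSBX had 3.86, 2.95, 4.05 and 2.60 log2 CPM and PSBW had 2.21, 1.24, 2.33 and 0.85. PSBTN, a short lumenal subunit, had 0.73, 0.50, 1.07 and -0.41 log2 CPM, a difference of -0.23 in Col-0 and -1.48 in *crr*. It was thus the photosystem II gene whose Pi difference departed most between the genotypes, by -1.25, and the only one of the 14 past 2-fold on that measure.

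The cytochrome b6f complex, which links the photosystems and pumps protons, was represented by PETC (AT4G03280, chromosome 4, 1440146 to 1441863), the Rieske iron-sulfur protein. PETC had 3.45 log2 CPM in Col-0 +Pi, 2.44 in Col-0 -Pi, 3.74 in *crr* +Pi and 1.49 in *crr* -Pi. This is 2.01-fold lower without Pi in Col-0 and 4.76-fold lower in *crr*. The mutant was above Col-0 with Pi, by 0.28 log2 units, and 1.94-fold below it without Pi.

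The name rule misses AT2G26500, which RefSeq annotates as the petM subunit of the same complex, so it was looked up after these values had been seen. It had 1.73, 1.03, 1.70 and -0.58 log2 CPM, with Pi differences of -0.70 in Col-0 and -2.28 in *crr*. DRT112, a plastocyanin gene that the rule also misses, had 3.79, 2.55, 3.87 and 1.84 log2 CPM, or -1.24 and -2.03. PETJ, which encodes a cytochrome c6-like protein of the lumen, had 0.52, 0.45, 0.70 and -0.48 log2 CPM, a difference of -0.07 in Col-0 and -1.18 in *crr*.

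Photosystem I genes were moderately lower in Col-0 and more so in *crr*. The median of the 15 genes was -0.56 in Col-0, where 1 gene passed 2-fold, and -1.20 in *crr*, where 10 did. Their summed level was 74.7 CPM with Pi and 46.4 without in Col-0, and 79.4 and 35.6 CPM in *crr*.

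On the acceptor side, where ferredoxin docks, PSAD1 had 3.37, 3.04, 3.72 and 2.65 log2 CPM and its paralog PSAD2 had 1.05, 0.67, 1.72 and -0.01. PSAD2 was 1.30-fold lower without Pi in Col-0 and 3.33-fold lower in *crr*. PSAE1 and PSAE2, also acceptor-side paralogs, had unlike Pi differences in *crr*, at low levels. PSAE1 had 1.27, 0.36, 1.15 and 0.57 log2 CPM, and PSAE2 (AT2G20260, chromosome 2, 8736734 to 8737767), whose G-box window is printed above, had 1.62, 0.89, 1.61 and -0.26. PSAE2 held 55.9% and 58.9% of the pair's CPM in Col-0 with and without Pi, but 57.9% and 36.0% in *crr*. The shares in *crr* rest on 3.05 and 0.84 CPM of PSAE2 and 2.22 and 1.49 CPM of PSAE1. Both genes also overlap an annotated gene on the opposite strand.

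On the lumenal side, PSAF, which docks plastocyanin, was the most expressed photosystem I gene with 4.34, 3.41, 4.33 and 3.04 log2 CPM. PSAN, which acts with it, had 2.46, 1.58, 2.35 and 1.14. PSAK, an antenna-binding subunit, had 3.46, 2.32, 3.29 and 2.12 log2 CPM and was the 1 photosystem I gene past 2-fold in Col-0 (-1.13, against -1.17 in *crr*).

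The subunits PSAL, PSAH and PSAO lie where mobile LHCII docks in state transitions. PSAL (AT4G12800, chromosome 4, 7521257 to 7522761) had 1.39, 0.86, 1.89 and -0.10 log2 CPM, 1.44-fold lower without Pi in Col-0 and 3.96-fold lower in *crr*. The difference of these log2 differences, -1.46, was the largest of any member. PSAH1 had 0.96, 0.49, 1.10 and -0.47 log2 CPM, and PSAO had 1.69, 1.02, 1.93 and 0.73. PSAH2 was the exception, at -0.54, -0.16, -1.58 and -1.93 log2 CPM. It was higher without Pi in Col-0 by 0.39 log2 units, and lower in *crr* than in Col-0 by 2.04-fold with Pi and 3.43-fold without, all at levels under 1 CPM and with another gene annotated over it on the opposite strand.

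The assembly factors PSA2 and PSA3 differed little between the genotypes, with Pi differences of -0.28 and -0.56 in Col-0 and -0.48 and -0.50 in *crr*. PSAG had 1.89, 1.32, 1.95 and 0.63 log2 CPM. The plastid gene PSAB, for a reaction centre core protein, stood between -1.46 log2 CPM in *crr* -Pi and -0.46 in *crr* +Pi, a low value in all groups. Only 7 of the 20017 genes are plastid genes, and no photosystem II member is 1 of them. The medians of the subgroups therefore describe nuclear genes almost alone.

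Of the 4 subgroups with several genes, the LHCB antenna of photosystem II had the smallest median reduction in both genotypes. Over all members the LHCA median lay close to that of photosystem I. Among members at 3 log2 CPM or more, the LHCA medians (2 genes) were -0.46 in Col-0 and -0.81 in *crr*. Those of LHCB (4 genes) were -0.43 and -0.76, and those of photosystem I (3 genes) -0.93 and -1.17. The place of LHCA beside photosystem I thus depends on low genes. The 5 LHCA genes had medians of -0.65 in Col-0 and -1.29 in *crr*, with none and 3 past 2-fold. The 9 LHCB genes had medians of -0.36 and -0.72, with none past 2-fold in Col-0 and LHCB4.1 alone past it in *crr*. The 14 antenna genes together held 103 CPM with Pi and 79.1 without in Col-0, and 114 and 67.6 CPM in *crr*.

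LHCA1 to LHCA4 form the antenna belt of photosystem I. LHCA4, the most expressed of them, had 4.24, 4.03, 4.30 and 3.98 log2 CPM, a Pi difference of only -0.20 in Col-0 and -0.32 in *crr*. LHCA3 had 3.44, 2.72, 3.71 and 2.41 log2 CPM, LHCA1 had 2.79, 2.15, 2.80 and 1.51, and LHCA2 had 1.99, 1.86, 2.04 and 1.34. LHCA5, a minor antenna protein that helps attach photosystem I to the chloroplast NDH complex, had 1.41, 0.52, 1.81 and -0.20 log2 CPM. Its Pi difference was -0.89 in Col-0 and -2.01 in *crr*, or 4.04-fold.

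Of the trimer-forming LHCII genes, LHCB1.3 had 3.23, 3.36, 3.41 and 2.86 log2 CPM, and was, with PSAH2, 1 of the 2 members not lower without Pi in Col-0. LHCB2.1 had -0.26, -0.86, 0.42 and -0.56 log2 CPM and LHCB3 had 2.19, 1.89, 2.49 and 1.97. Reads of LHCB1.3 and LHCB2.1 cannot be told apart fully from near-identical copies, since 17% and 22.7% of their 50-base stretches also occur in other genes. The figure was 8.76% for LHCA2 and 1.48% for RBCS-1A, and 0 for the other nuclear members. LHB1B2, another LHCB1 gene that the name rule misses, had 4.39, 3.32, 4.54 and 3.16 log2 CPM. Its Pi differences were -1.07 in Col-0 and -1.37 in *crr*, past 2-fold in both genotypes. It is not in the LHCB medians and counts above, which hold for the LHCB genes under the rule only.

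The minor antenna genes, between the trimers and the core, included LHCB4.1 with 3.96, 3.59, 4.10 and 3.09 log2 CPM, 1.29-fold lower without Pi in Col-0 and 2.01-fold in *crr*. LHCB5 had 3.53, 3.04, 3.59 and 2.87 log2 CPM. LHCB6, whose window with a G-box and an I-box is printed above, had 3.48, 2.75, 3.64 and 2.85. LHCB7 had 1.64, 0.89, 1.63 and 0.80. LHCB4.2 was nearly level, with 1.49, 1.34, 1.74 and 1.52 log2 CPM, and LHCB4.3 stayed under 0 in all groups.

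RBCS-1A (AT1G67090, chromosome 1, 25048158 to 25049667), the 1 Rubisco small subunit gene under the rule, had 3.58, 3.05, 3.92 and 2.19 log2 CPM. It was 1.44-fold lower without Pi in Col-0 and 3.31-fold lower in *crr*. RCA, the Rubisco activase gene, lies outside the rule and had 4.91, 3.83, 5.10 and 3.45 log2 CPM, or -1.08 and -1.65.

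**Figure D3:**
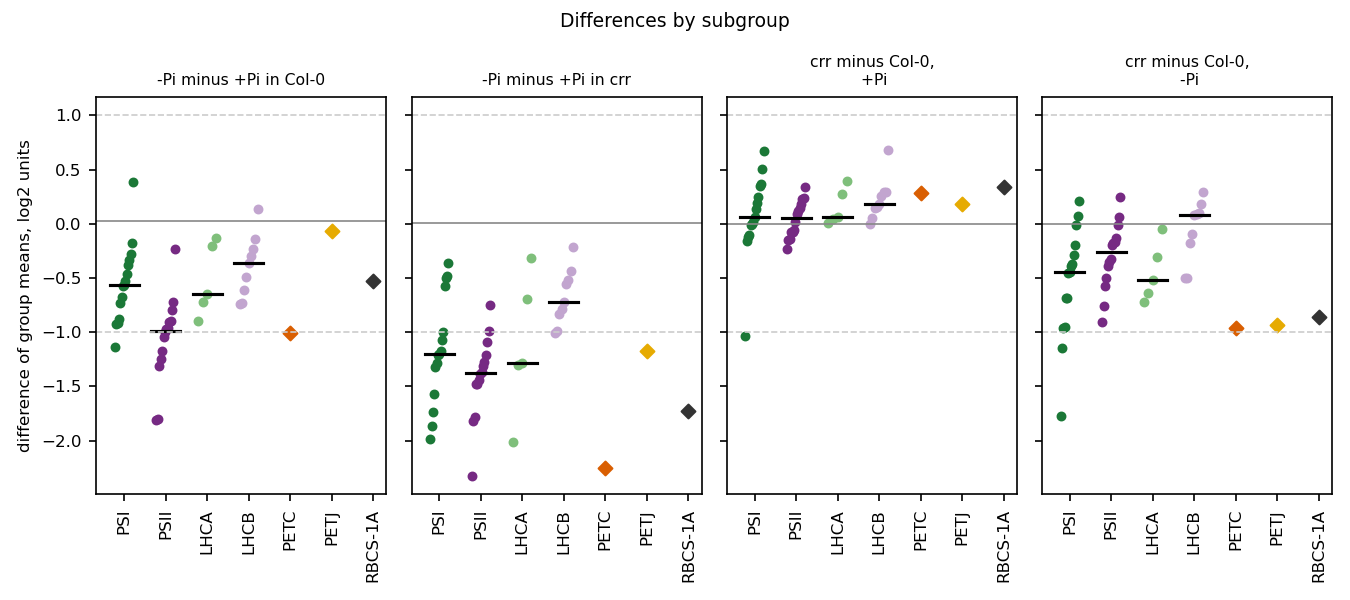
Differences of group means in log2 units for photosystem I (PSI), photosystem II (PSII), LHCA and LHCB genes, 1 point a gene with a black line at the median, and for PETC, PETJ and RBCS-1A as diamonds. Grey lines mark the median of all genes and dashed lines 2-fold. The PSII median lies lowest in Col-0 (-0.98), and the LHCB median lies highest in both genotypes (-0.36 and -0.72).

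Between the genotypes with Pi, the members differed little. Their median was 0.14 log2 units above Col-0 in *crr*, against 0.00 over all genes. Of the 46, 33 were higher in *crr* and 13 lower (28.3%), where 50.2% of all genes were lower. By 2-fold, PSAH2 was lower and none was higher, where the whole set of genes had 0.56% lower and 0.395% higher. Without Pi the median was -0.36 and 37 of 46 (80.4%) were lower in *crr*, against 51.6% of all genes. The 2 members lower by 2-fold were PSAH2 and PSAE2, where all genes had 1.06% lower and 0.629% higher. Both overlap a gene annotated on the opposite strand. The count of members was 0 on the log2(CPM + 1) scale and 0 among those with no overlapping annotated gene. In all, 27 members were higher in *crr* with Pi and lower without, 10 were lower in both media, 6 were higher in both and 3 were lower with Pi and higher without. These counts by pair of signs were not made over all genes.

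The difference of the Pi differences, *crr* minus Col-0, had a median of -0.46 over the members and -0.01 over all genes. It was below 0 for 42 of the 46 (91.3%), against 51.8% of all genes. Past 2-fold were 9 members, all lower (19.6%), where 1.51% of the table was lower and 1.47% higher. These 9 were PSAL (-1.46), PSAD2 (-1.36), PSBTN (-1.25), PETC (-1.24), RBCS-1A (-1.20), PSAE2 (-1.14), LHCA5 (-1.12), PETJ (-1.11) and PSAH1 (-1.10). The medians were -0.74 for photosystem I, -0.58 for LHCA, -0.39 for photosystem II and -0.22 for LHCB. PSAE1 (0.33), PSBS (0.32), PSB28 (0.30) and PSA3 (0.06) were above 0.

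Of these 9, all but PETC and RBCS-1A had low mean levels, from 0.30 for PETJ to 1.01 log2 CPM for PSAL, while the most expressed members, PSBR (-0.12) and PSBO1 (-0.03), lay near 0, followed by PSBP1 (-0.42) and LHCA4 (-0.12). Across the 46 genes the mean level and this measure had a Pearson r of 0.30, a description over genes that share libraries. The part of counting error in this was not tested. Among the 19 members that reached 3 log2 CPM in a group the medians were -0.44 for LHCB, -0.36 for photosystem I, -0.35 for LHCA and -0.20 for photosystem II, so the order of the subgroups given above does not hold there. The count past 2-fold was 2 of 46 on the log2(CPM + 1) scale, 2 of the 19 members at 3 log2 CPM and 4 of the 27 members with a reference entry and no overlapping annotated gene, so the 9 genes named depend on how low values are treated.

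**Figure D4:**
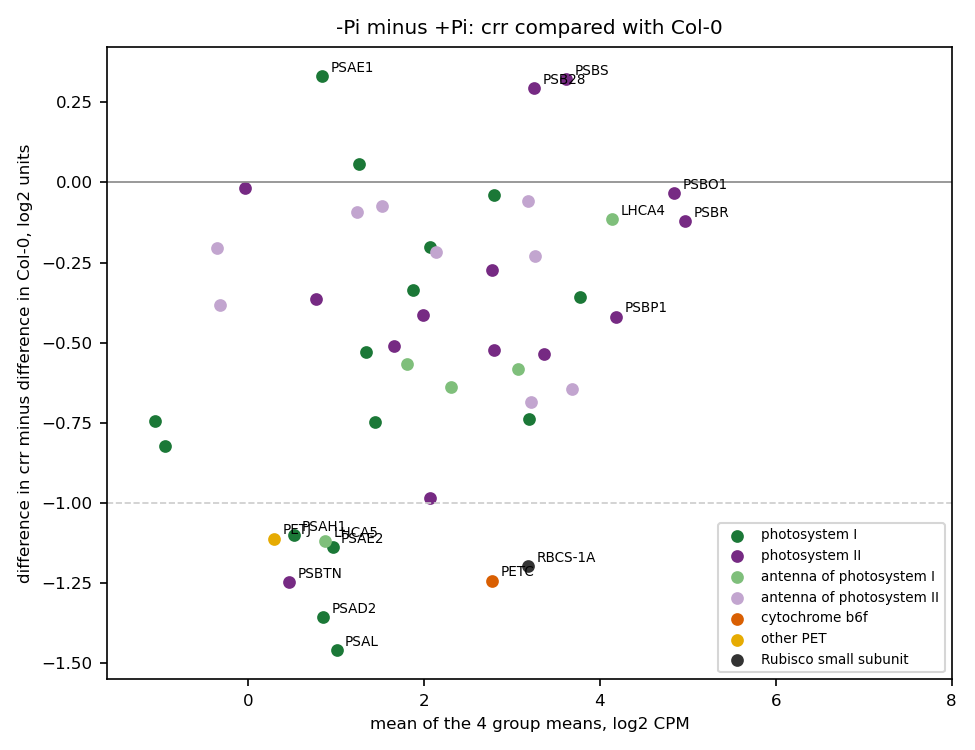
Mean level of each gene over the 4 groups in log2 CPM (x axis) against the Pi difference in crr minus that in Col-0, in log2 units (y axis), coloured by subgroup, with a dashed line at 2-fold. Below the dashed line lie 9 genes, and PSBR and PSBO1 at the highest levels lie near 0.

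Other genes of the thylakoid and of chlorophyll synthesis were compared from 9 lists, 2 of which were chosen as markers of root and shoot cells. Of 17 chlorophyll synthesis genes, 16 were lower without Pi in Col-0 and all 17 in *crr*, with medians of -0.45 and -0.62, and 1 and 7 past 2-fold. PORC, a protochlorophyllide reductase, had 0.39, -0.03, 0.96 and -1.30 log2 CPM, and CHL27, a subunit of the cyclase, had 4.88, 4.13, 4.94 and 3.48. Chlorophyll synthase CHLG had 4.32, 3.27, 4.19 and 3.06, and PORB differed by -0.24 in Col-0 and -1.27 in *crr*.

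All 9 genes of leaf ferredoxin, ferredoxin NADP reductase and cyclic electron flow were lower in both genotypes (medians -0.76 and -0.81), 2 and 4 of them by 2-fold. FD1, a leaf ferredoxin, had 5.81, 4.75, 5.69 and 4.88 log2 CPM, and LFNR2 had 2.68, 1.60, 2.63 and 1.53. All 19 assembly, repair and remodelling genes were also lower (-0.47 and -0.61), 3 and 8 by 2-fold. They included CURT1C, which curves grana margins, with 1.14, 0.15, 1.38 and -0.93 log2 CPM, and the photosystem II assembly factor PAM68 with 0.98, -0.75, 0.69 and -0.85. Of the 4 nuclear ATP synthase genes, ATPC1, the gamma subunit, alone passed 2-fold, in both genotypes (-1.17 and -1.90), and the list medians were -0.46 and -0.61.

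Of 14 NDH genes listed, 5 had values, with medians of -0.30 and 0.01 and no common direction. PNSB2 was lower by 2-fold in Col-0 (-1.91, against -0.79 in *crr*), and NDHO was higher by 2-fold in *crr* (1.12). For the 14 regulators of greening the medians were -0.30 and -0.12. PIF3, a phytochrome-interacting repressor of greening, was higher without Pi in both genotypes, with 1.43, 3.34, 1.64 and 3.32 log2 CPM. SIG6, a plastid sigma factor, had 3.77, 2.85, 3.60 and 2.31, and GLK2, an activator of photosynthesis genes, had 2.69, 2.25, 2.80 and 2.27. GLK1 went the other way, higher without Pi by 0.71 in Col-0 and 0.31 in *crr*, and GNC was lower (-0.78 and -0.60), both at low levels. Of the 14 regulators, 11 were lower without Pi in Col-0 and 9 in *crr*. The 7 genes of the root plastid ferredoxin pathway, which serves nitrogen assimilation, had medians of -0.26 and -0.16 and none past 2-fold.

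**Figure D5:**
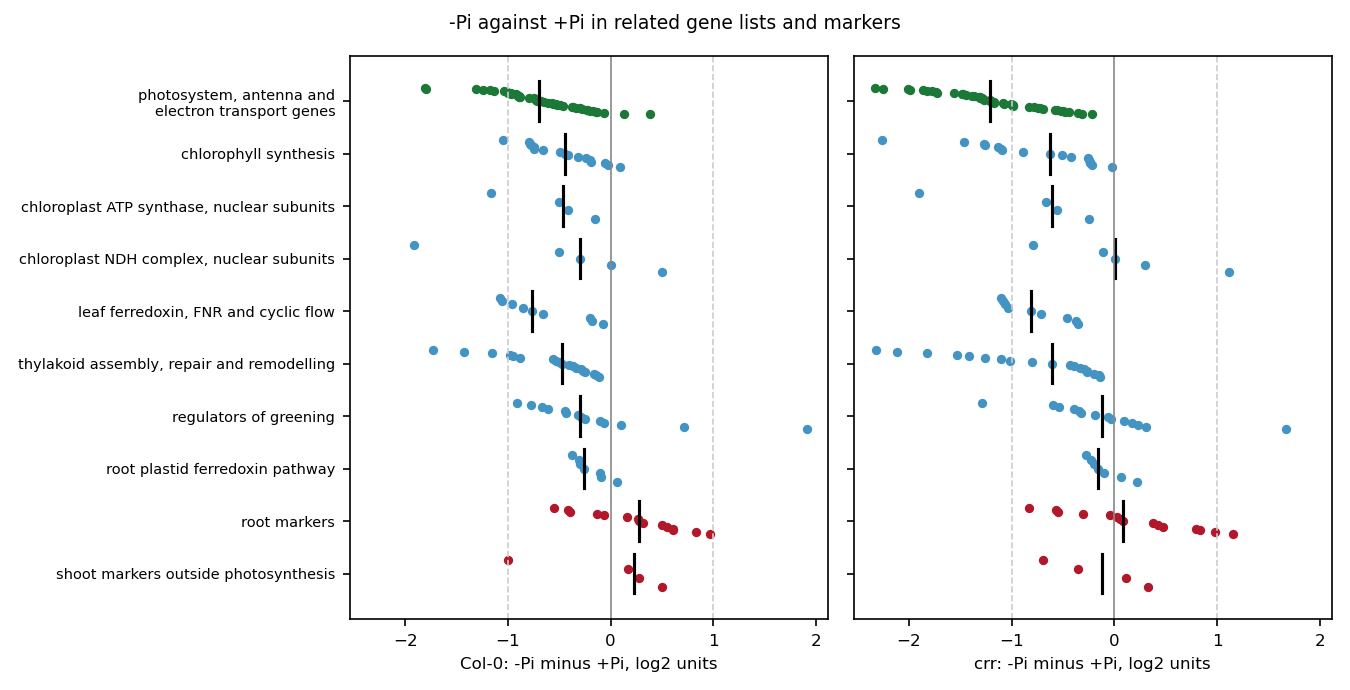
Difference between -Pi and +Pi in Col-0 (left) and crr (right) in log2 units on the x axis, for the 46 members (green), related lists (blue) and root or shoot markers (red), 1 point a gene and a black line at each median. The members lie furthest left with medians of -0.70 and -1.21, except that the median of the ferredoxin list is lower in Col-0 (-0.76).

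In bulk root tissue, fewer green cells and less RNA per cell cannot be told apart. Of 15 root markers all were measured, with medians of 0.28 in Col-0 and 0.09 in *crr*, and 10 of the 15 were higher without Pi in each genotype. The root hair genes RHD6 (0.83 in Col-0 and 1.16 in *crr*), COBL9 (0.61 and 0.79) and EXPA7 (0.97 and 0.84) and the endodermis regulator MYB36 (0.50 and 0.99) were among the higher ones. The endodermis genes SCR (-0.06 and 0.06) and CASP1 (-0.13 and 0.42) were lower in Col-0 and higher in *crr*. GL2 (-0.40 and -0.31) and NRT2.1 (-0.42 and -0.55) were lower in both genotypes. The sum of the list ran from 14632 CPM in Col-0 +Pi through 14203 in *crr* +Pi and 10175 in Col-0 -Pi to 8325 in *crr* -Pi, nearly all of it from PYK10, which had 13.80, 13.24, 13.75 and 12.92 log2 CPM and was lower without Pi, unlike most of the list. Of 15 shoot markers outside photosynthesis, AS1, KAN1, KNAT1 and MYB60 had values. The other 11, the meristem genes STM, WUS and CLV3 among them, were looked up and are not among the 20017 genes. The sum of the 4 shoot markers with values was 60.5, 74.3, 62.7 and 64.9 CPM. Without Pi, AS1 (0.28 in Col-0 and 0.11 in *crr*) and KAN1 (0.50 and 0.33) were higher, KNAT1 was higher in Col-0 (0.17) and lower in *crr* (-0.35), and MYB60, a guard cell gene, had 0.85, -0.16, 0.76 and 0.06 log2 CPM, lower in both genotypes. The part of cell composition in the lower values without Pi was not tested. In addition, 18 members overlap another annotated gene, 17 of them on the opposite strand, and the strand setting of the counting is not given in the sources used here.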

How the data were processed

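Root RNA of 12 libraries in 4 groups was sequenced. According to the methods and the submitters' processing notes, the authors trimmed reads with cutadapt 1.8, removed ribosomal and low-complexity reads, aligned them to TAIR10 with STAR 2.5.3a, counted them with HTSeq 0.9.1 (RSEM 1.2.31 is also listed), kept genes at 1 CPM or more in at least 1 sample, and computed TMM-scaled log2 CPM with edgeR 3.24.3 in R 3.5.3. The prior count is not given in the sources used here, nor is how the values were averaged. For RNA extraction a column kit is named by the labels but Trizol by the methods.

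The values used are the deposited log2 CPM means of the 4 groups, made by the authors. The other 5 of the 6 deposited tables hold the authors' fold changes and p-values and were not used. Single libraries were not analysed here, so the planned comparisons are differences of group means, with a limit of 2-fold and no test. Lower values of low genes depend on the unknown prior count. The computation was made with Python 3.11.15, numpy 2.4.6 and matplotlib 3.10.9, and was tested on simulated data.

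The members and the lists were chosen with earlier results of these data known. In each subgroup the text names the member with the highest mean level and the 3 with the largest difference in each comparison. It also names all members of small subgroups and up to 4 genes of each other list. Further members, further greening regulators and root markers, and the genes outside the rule were named after their values had been seen. Positions in the table equalled those of RefSeq's TAIR10.1 for 99.5% of 19973 genes, and transcript lengths and upstream sequences are from TAIR10.1. Alternatives were a minimum level, log2(CPM + 1), centring on all genes, a limit of 1.5-fold, names in any case and means.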

Additional observations from a re-analysis of the deposited data

How the results depend on the processing

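No paired analysis was possible because the values are group means and hold no replicate, and no replicate could be left out in turn. Of 30 results (5 comparisons, each with a count of members lower by the limit and medians over all members and 4 subgroups), 175 of 210 alternative values had the same direction and moved by under 0.1 log2 units or less than 1.5 times. The 175 include all 30 values with names in any case, which gave the same 46 members and so could not differ. They also include all 30 with the median of all genes subtracted, a shift of between -0.01 and 0.02 log2 units that could hardly move them. With log2(CPM + 1), which shrinks differences of low genes by construction, the counts lower by 2-fold were 4 in Col-0, 19 in *crr*, 0 between genotypes in either medium and 2 for the difference of the Pi differences, whose photosystem I median was -0.32. A limit of 1.5-fold gave 26 in Col-0, 13 between genotypes without Pi and 17 for the difference of the Pi differences. The shares of all genes were not computed at 1.5-fold, on the log2(CPM + 1) scale or for the last 2 alternatives below. Counts under these settings therefore have no background beside them. With a minimum of 1 log2 CPM the genotype counts were 0 with Pi and 1 without, where 0.141% and 0.435% of all genes at that minimum were lower by 2-fold. The LHCB median between genotypes without Pi, 0.08, was reversed at that minimum (-0.10), as a mean (-0.058), without overlapping genes (-0.10) and at 3 log2 CPM (-0.34), so its direction is not settled.

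The last 2 alternatives were chosen after seeing the data and leave fewer members by construction. In 27 members with a reference entry and no overlapping annotated gene (18 overlap one, and PSAB has no entry and was left out), 19 were lower by 2-fold in *crr*, 0 between genotypes in either medium and 4 for the difference of the Pi differences; the photosystem I medians were 0.22 between genotypes with Pi and -0.44 for that difference. In 19 members at 3 log2 CPM or more these counts were 13, 0, 0 and 2. There the photosystem I median was -0.93 in Col-0 and the LHCA median -0.81 in *crr*. Between genotypes with Pi the photosystem I and II medians were reversed (-0.010 and -0.017) and the LHCA median was 0.17, or -0.18 without Pi. The difference of the Pi differences was -0.36 for photosystem I, -0.20 for photosystem II, -0.35 for LHCA and -0.44 for LHCB, so the order of the subgroups on it depends on low genes. Without single libraries, depth and spread set limits that cannot be given.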
